A study of Mus musculus with 8 samples.

Results

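Myelin is the layered membrane that oligodendrocytes wrap around axons, and a small set of abundant proteins builds it. Basic proteins on the cytoplasmic face and proteins within the membrane compact the layers, adhesion and surface proteins hold the sheath to the axon and face the outside, and a claudin seals the layers to each other. Their genes are switched on together as an oligodendrocyte matures, under transcription factors such as SOX10 and MYRF, and are used as markers of mature oligodendrocytes. The 9 myelin protein genes described here were chosen by name and found in the count tables by their Ensembl IDs: Mbp, Mobp, Mal, Cnp, Mag, Mog, Cldn11, Opalin and Ermn. They are 9 of the 55573 genes counted, and all 9 passed the filter on low counts that left 18205 genes to test.

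RNA was sequenced from tdTomato-marked cells sorted from the cortex of C57BL/6-background mice, in 8 libraries of 4 groups with 2 libraries each. The groups were Dnmt1 knockout (KO, PV-Cre/tdTomato/Dnmt1 loxP2) at 18 months, wild type (WT, PV-Cre/tdTomato/Dnmt1 wild-type) at 18 months, KO at 6 months and WT at 6 months. Mice of every group carry the PV-Cre driver and the tdTomato reporter, so the groups differ in whether the DNA methyltransferase gene Dnmt1 is flanked by loxP sites. Cre made under the parvalbumin gene deletes floxed Dnmt1 where the parvalbumin gene is or has been active. The design text gives the libraries of a group as technical replicates of cells pooled from 6 WT and 6 KO mice, and does not say whether replicates are runs, libraries or separate pools, or whether the 6 mice are per age. The SE and p-values therefore measure the spread between these libraries, which may be technical, and a difference between groups cannot be told apart from one between pools of mice.

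The label names parvalbumin interneurons, and the markers go against it. Pvalb had 0 to 2 reads in every library, out of 6008175 to 13551218 counts per library. The 9 myelin protein genes alone took 1.53% and 1.59% of all counts in the KO libraries and 2.15% and 2.22% in the WT libraries at 18 months, and 1.69% and 1.74% in the KO libraries and 0.780% in each WT library at 6 months. The targeted gene Dnmt1 was at 75.4 ± 1.64 CPM in KO and 80.9 ± 0.217 CPM in WT at 18 months, and at 76.2 ± 1.39 CPM in KO and 100.8 ± 4.03 CPM in WT at 6 months (SD, n = 2 each). Dnmt1 fell in KO at 6 months (log2 fold change -0.40, adjusted p = 1e-04, edgeR) and did not pass the test at 18 months (-0.10, 95% interval -0.24 to 0.04, adjusted p = 0.281, edgeR), so KO and WT are used below as the labels' names. CPM are read counts per 1e6 counts of the scaled library total. The WT libraries at 6 months stood apart, correlating across genes at 0.91 to 0.958 with libraries of other groups, while the libraries of the other 3 groups correlated across groups at 0.964 to 0.979. Counts were fewest in WT at 6 months, 6008175 and 6024905, against at least 8481613 in other libraries. Reads of Gm26917 were 599208 and 559876 there and 201584 to 422253 elsewhere. Reads of mt-Rnr2 were 48838 and 28458 there and 193602 to 437086 elsewhere. The 2 libraries of this group correlated at 0.982, against 0.991 to 0.993 within other groups. What these differences do to the comparisons was not tested. The values below are those of RNA from a mixture of cells, in which fewer oligodendrocytes and less myelin RNA per oligodendrocyte cannot be told apart.

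The promoters of 4 members are shown, chosen by a test described further down. Mobp and Opalin departed most from the median of other oligodendrocyte genes in the test that joins genotype and age, and Mag and Cnp did not pass that test. Cnp missed it narrowly (adjusted p = 0.0501, edgeR) and was called lower in several alternatives. Each run holds 250 bases before and 50 after the RefSeq start site (build GRCm38.p6), 5′ to 3′ on the gene's strand. Capitals mark the SOX core ACAAAG, on either strand, and the MYRF motif written as CTGGCAC or CTGGTAC, on either strand. No motif match overlapped another in these 4 sequences.
Mobp, chr9:120149492-120149791, plus strand: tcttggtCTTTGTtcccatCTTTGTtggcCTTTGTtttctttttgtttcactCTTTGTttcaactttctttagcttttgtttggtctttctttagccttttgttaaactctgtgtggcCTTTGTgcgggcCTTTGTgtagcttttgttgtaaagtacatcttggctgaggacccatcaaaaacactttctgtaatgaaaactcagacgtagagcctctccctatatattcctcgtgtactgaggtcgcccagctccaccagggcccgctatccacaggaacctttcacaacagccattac
Opalin, chr19:41077064-41077363, minus strand: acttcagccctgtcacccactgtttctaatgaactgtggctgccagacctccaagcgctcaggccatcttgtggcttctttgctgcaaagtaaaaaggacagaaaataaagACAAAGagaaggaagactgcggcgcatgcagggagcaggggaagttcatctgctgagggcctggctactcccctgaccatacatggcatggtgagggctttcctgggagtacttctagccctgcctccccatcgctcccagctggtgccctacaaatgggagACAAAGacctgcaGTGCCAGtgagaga
Cnp, chr11:100574689-100574988, plus strand: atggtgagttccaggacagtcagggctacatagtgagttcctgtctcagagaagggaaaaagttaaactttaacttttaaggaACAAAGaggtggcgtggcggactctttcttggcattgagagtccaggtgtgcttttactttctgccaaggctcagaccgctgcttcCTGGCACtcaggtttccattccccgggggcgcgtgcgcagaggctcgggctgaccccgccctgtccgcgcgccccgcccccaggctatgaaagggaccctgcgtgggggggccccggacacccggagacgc
Mag, chr7:30914814-30915113, minus strand, the first of 3 start sites listed: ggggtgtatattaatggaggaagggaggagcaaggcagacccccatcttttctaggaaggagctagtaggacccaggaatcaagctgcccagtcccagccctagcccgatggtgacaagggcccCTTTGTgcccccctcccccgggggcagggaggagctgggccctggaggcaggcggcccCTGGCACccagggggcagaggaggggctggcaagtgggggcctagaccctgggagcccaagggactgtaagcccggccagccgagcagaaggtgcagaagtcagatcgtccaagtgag

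The Mobp promoter held 6 copies of the SOX core, all on the minus strand as CTTTGT, between positions -243 and -120 from the start site. It was the single promoter of 32851 with at least 6. The Opalin promoter held 2 SOX cores and 1 MYRF motif, and those of Cnp and Mag 1 of each. The SOX core was present in 5 and the MYRF motif in 5 of the 10 promoters listed for 8 of the members, against 18.7% and 7.1% of all promoters. No promoter was listed for Mbp. Of 24 promoters of the other oligodendrocyte genes described further down, 16.7% held the SOX core and 12.5% the MYRF motif. Of the windows of Mag, 2 overlap, and the same SOX core and MYRF motif count in both of them. The remaining Mag window, 30914272 to 30914571, holds neither motif. By gene each motif was found in 4 of 8 members, and counts by gene were not made over all promoters. The TATA box TATAAA, on either strand, was found in 0 of the 10, against 13.6% of all promoters and 12.5% of those of the other oligodendrocyte genes. Mal, Ermn and Cldn11 had no match to these 3 motifs in this window. CpG dinucleotides, the sites that Dnmt1 methylates, numbered 24 in the Cldn11 and 17 in the Cnp promoter and between 3 and 8 in the other 8 listed, against a median of 7 over all promoters. These counts describe letters in a window, and the DNA methylation of these cells was not analysed here.

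For all 9 genes the WT libraries lay at both ends of the range, at the top at 18 months and at the bottom at 6 months, with the KO libraries of both ages in between. The range of their summed level was 14550 to 15180 CPM in KO and 22880 to 23190 CPM in WT at 18 months, and 17410 to 17580 CPM in KO and 7636 to 7717 CPM in WT at 6 months. The fewest reads behind a value were 750 (Opalin) and the most 76221 (Mbp).

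The first 3 genes encode proteins of compact myelin and of its lipid rafts. Mbp (ENSMUSG00000041607, chromosome 18, 82475146 to 82585637, mm10), myelin basic protein, binds the cytoplasmic faces of the membrane together. It was at 3832 and 4101 CPM in KO and 6005 and 5867 CPM in WT at 18 months, and at 3995 and 4134 CPM in KO and 1774 and 1691 CPM in WT at 6 months. The KO libraries of the 2 ages overlapped, and those of WT lay above and below them. Mobp (ENSMUSG00000032517, chromosome 9, 120149707 to 120181484), a second basic protein of the compacted cytoplasmic face, was at 1624 and 1669 CPM in KO and 2363 and 2407 CPM in WT at 18 months, and at 2164 and 2213 CPM in KO and 683.8 and 637.6 CPM in WT at 6 months. Its KO level at 6 months lay close under the WT level at 18 months, and no groups overlapped. Mal (ENSMUSG00000027375, chromosome 2, 127633226 to 127656695), a proteolipid of lipid rafts that sorts membrane cargo, was at 1989 and 2003 CPM in KO and 3477 and 3708 CPM in WT at 18 months, and at 2769 and 2700 CPM in KO and 1247 and 1319 CPM in WT at 6 months. Again no groups overlapped, and KO was lower at 18 than at 6 months.

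The proteins of uncompacted myelin and of its surfaces followed. Cnp (ENSMUSG00000006782, chromosome 11, 100574904 to 100591729), an enzyme and membrane protein of the cytoplasmic channels, was at 2655 and 2788 CPM in KO and 4225 and 4575 CPM in WT at 18 months, and at 3466 and 3550 CPM in KO and 1693 and 1696 CPM in WT at 6 months. Mag (ENSMUSG00000036634, chromosome 7, 30899176 to 30914873), an adhesion protein of the innermost layer next to the axon, was at 2084 and 2290 CPM in KO and 2854 and 2940 CPM in WT at 18 months, and at 2230 and 2322 CPM in KO and 1144 and 1131 CPM in WT at 6 months. Mag and Mbp were the members whose KO libraries overlapped between ages. Mog (ENSMUSG00000076439, chromosome 17, 37010743 to 37023398), an immunoglobulin-like protein of the outermost surface, was at 447.1 and 478.9 CPM in KO and 743.4 and 786 CPM in WT at 18 months, and at 593.4 and 599.9 CPM in KO and 271.1 and 270.3 CPM in WT at 6 months. Its groups were all separate.

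The remaining members have other roles in the sheath. Cldn11 (ENSMUSG00000037625, chromosome 3, 31149920 to 31164324), the claudin of the tight junctions between layers, was at 935.4 and 851.9 CPM in KO and 1527 and 1267 CPM in WT at 18 months, and at 1149 and 1086 CPM in KO and 453.3 and 422.5 CPM in WT at 6 months. Relative to the mean, its WT libraries at 18 months were farther apart than any other pair of a group among the 9 genes (1397 ± 184 CPM, SD, n = 2). Opalin (ENSMUSG00000050121, chromosome 19, 41061710 to 41077113), a transmembrane glycoprotein of oligodendrocytes, was at 195.9 and 212.6 CPM in KO and 397.4 and 409.9 CPM in WT at 18 months, and at 283.8 and 279.6 CPM in KO and 123.5 CPM in each WT library at 6 months. Ermn (ENSMUSG00000026830, chromosome 2, 58045113 to 58052864), ermin, an actin-binding protein of late oligodendrocytes, was at 792.4 and 790.7 CPM in KO and 1286 and 1229 CPM in WT at 18 months, and at 757.2 and 690.4 CPM in KO and 326.6 and 344.5 CPM in WT at 6 months. Ermn was the single member whose KO libraries at 18 months lay above those at 6 months.

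Exons of 3 members overlap those of another gene: Cnp shares 154 bases with Dnajc7 and Ermn 237 with Galnt5, each on the opposite strand, and Mobp 79 with Gm38642 on the same strand. No source used here says whether reads were counted by strand. The reads of those genes over the 8 libraries were 8888, 851 and 1040, against 240961 of Cnp, 62273 of Ermn and 136237 of Mobp.

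**Figure D1:**
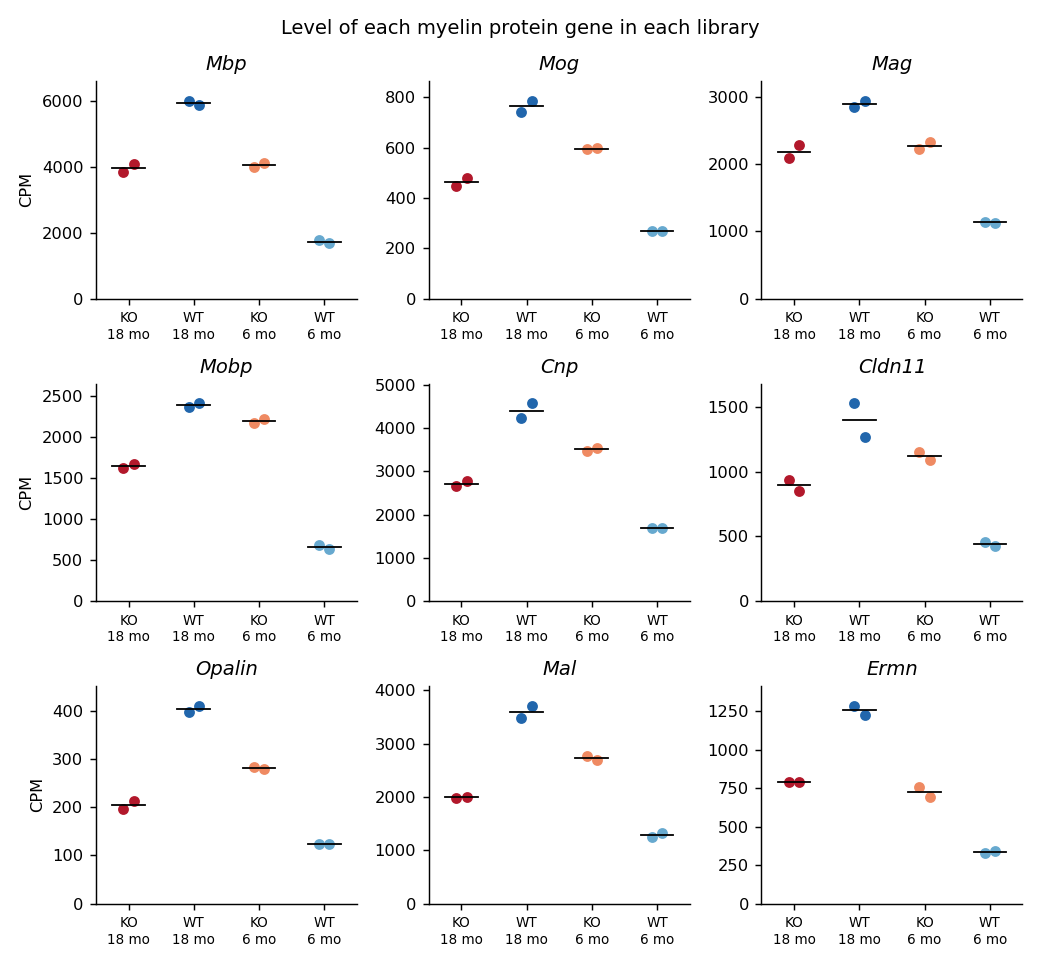
Level of each of the 9 myelin protein genes in CPM (linear axis from 0) in KO and WT libraries at 18 months, then KO and WT libraries at 6 months. Points are libraries and lines are group means. In every panel the WT points are at the top for 18 months and at the bottom for 6 months, and the KO libraries of the 2 ages overlap in the panels of Mbp and Mag.

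At 18 months all 9 genes were lower in the libraries labelled KO than in those labelled WT. The difference was largest for Opalin, which fell 1.98-fold (log2 -0.98, SE 0.0574, adjusted p = 5.08e-12, edgeR), followed by Mal, which fell 1.8-fold (-0.85, SE 0.0496, adjusted p = 5.08e-12, edgeR). Mag moved least of the 9 and fell 1.32-fold (-0.41, SE 0.0513, adjusted p = 1.18e-06, edgeR). Mbp fell 1.5-fold, Mobp 1.45-fold, Cldn11 1.56-fold, Ermn 1.59-fold, Cnp 1.62-fold and Mog 1.65-fold. Of all genes tested, 17.4% were called lower and 14.7% higher, and the median log2 fold change was 0.00 over all genes and -0.67 over the members. With library totals in place of TMM scaling, 4268 genes were higher and 1848 lower (2679 and 3165 with TMM), the median over all genes moved to 0.14 and that of the members to -0.52.

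At 6 months, the same comparison in younger adults, the 9 genes went the other way: all rose in KO. Mobp rose most, 3.31-fold (log2 fold change 1.73, SE 0.0516, adjusted p = 4.21e-17, edgeR), then Cldn11, 2.55-fold (1.35, SE 0.0711), and Mbp, 2.35-fold (1.23, SE 0.0491, adjusted p = 5.03e-15, edgeR). Mag rose least, 2-fold (1.00, SE 0.0523). Opalin rose 2.28-fold, Mog 2.2-fold, Ermn 2.16-fold, Mal 2.13-fold and Cnp 2.07-fold. Of all genes, 19.2% were called higher and 19.6% lower, with a median log2 fold change of 0.00, against 1.14 over the members. This comparison rests on the WT libraries that stood apart from all others.

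Over age in WT, all 9 genes rose at 18 months. Ermn rose 3.75-fold (log2 fold change 1.91, SE 0.0578, adjusted p = 4.51e-18, edgeR), Mobp 3.61-fold, Mbp 3.43-fold, Opalin 3.27-fold and Cldn11 3.19-fold. Mog rose 2.83-fold, Mal 2.8-fold, Cnp 2.6-fold and Mag 2.55-fold. Calls were common in this comparison, with 28.2% of all genes higher and 30.8% lower, and the median log2 fold change was -0.04 over all genes and 1.67 over the members. The age comparison in WT and each genotype comparison share WT libraries, so their values are set side by side and are not separate evidence.

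Over age in KO, the change was smaller and mixed. Of the 9 genes, 6 fell at 18 months: Opalin 1.38-fold (log2 fold change -0.46, SE 0.0581, adjusted p = 1.36e-06, edgeR), Mal 1.37-fold, Mobp 1.33-fold, Mog 1.29-fold, Cnp 1.29-fold and Cldn11 1.25-fold. The other 3 did not pass the test. Mbp had a log2 fold change of -0.04 (95% interval -0.13 to 0.06), Mag of -0.06 (-0.16 to 0.05) and Ermn of 0.13 (0.02 to 0.24, adjusted p = 0.0766, edgeR). Without KO replicate 1 of 6 months Ermn was called higher (0.20, adjusted p = 0.0289, edgeR). Of all genes, 17.9% were called lower and 13.8% higher, with a median of 0.00, against -0.37 over the members. With library totals the split of all genes was 2543 lower and 3839 higher (3263 and 2512 with TMM), and Ermn was higher (0.22, adjusted p = 0.00262, edgeR). Without KO replicate 1 of 18 months the counts over all genes were 2154 lower and 1386 higher, and without KO replicate 2 of 6 months 2003 and 1252, while the same 6 members were called lower in all 15 alternatives.

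**Figure D2:**
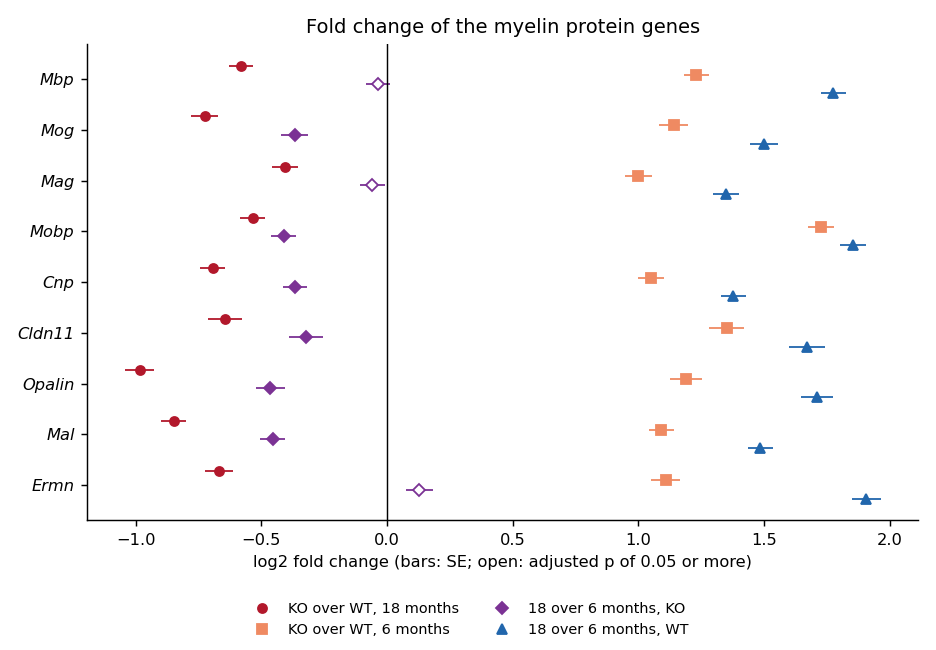
Log2 fold changes of the 9 myelin protein genes (x axis; bars are SE from the fit) in 4 comparisons: KO over WT at 18 months, KO over WT at 6 months, 18 over 6 months in KO and 18 over 6 months in WT. Filled symbols passed the threshold. KO over WT lies between -0.98 and -0.41 at 18 months and between 1.00 and 1.73 at 6 months.

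The difference between the genotype effects at the 2 ages was tested directly, as KO over WT at 18 months minus KO over WT at 6 months on the log2 scale. All 9 genes were called lower, from -1.41 for Mag (SE 0.0733) to -2.26 for Mobp (SE 0.0714, adjusted p = 1.45e-16, edgeR). Opalin was at -2.17 (SE 0.0853), Cldn11 at -1.99, Mal at -1.94, Mog at -1.86, Mbp at -1.81, Ermn at -1.78 and Cnp at -1.74. Of all genes, 20.7% were called lower and 18.4% higher (3768 and 3358), with a median of 0.01, against -1.86 over the members. With library totals the split was 2651 lower and 4769 higher, the median over all genes 0.21 and that over the members -1.67.

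Other genes of mature oligodendrocytes moved along with the myelin protein genes, and the members were therefore also set against them. A list of 22 such genes that holds no member includes Aspa, Ugt8a, Myrf and Trf. Of its 21 tested genes all were lower in KO than in WT at 18 months (median -0.41, from -0.92 to -0.30), and all were higher in KO at 6 months (median 1.09, from 0.61 to 1.37). All 21 rose with age in WT (median 1.46, from 0.61 to 2.07), while in KO 8 fell, 5 rose and 8 did not pass the test (median -0.03, from -0.83 to 0.59). In the difference between the genotype effects all 21 were called lower (median -1.54, from -2.07 to -1.17). In the next fit each library was scaled to the median of these 21 genes, at mean levels from 38.3 to 883.8 CPM, instead of to all genes. A fold change in that fit is relative to their median, and the scaling is taken as known, so the errors leave out the spread among the 21 genes. A call in it therefore does not place a member outside the range of the list. The scaling also shifts the fold changes of all genes together. The shares of all genes called in that fit follow this shift and do not serve as a background for the members.

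Relative to other oligodendrocyte genes, Mobp stood out among the members at 6 months. It rose 1.53-fold in KO (log2 0.62, SE 0.0577, adjusted p = 1.27e-10, edgeR), and Cldn11 rose 1.18-fold (0.24, SE 0.0719, adjusted p = 0.00323, edgeR). Mbp passed narrowly (0.12, adjusted p = 0.0472, edgeR) and lost its call when one library was left out: KO replicate 1 (adjusted p = 0.0523, edgeR), KO replicate 2 (0.0783) or WT replicate 2 (0.179) of this age, or WT replicate 2 of 18 months (0.0516). It also lost it with the scaling genes at odd places in the list (0.0929). The other 6 lay between -0.11 and 0.08. In this fit 1.03% of all genes were called higher and 81.3% lower, with a median of -1.11, against 0.03 over the members.

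At 18 months, 6 of the 9 were lower in KO on this scale as well. Opalin fell 1.44-fold (-0.52, SE 0.0623, adjusted p = 6.64e-08, edgeR), Mal 1.31-fold (-0.39, adjusted p = 2.97e-06, edgeR) and Mog 1.2-fold (-0.26, adjusted p = 0.00048, edgeR), and these 3 kept their calls in all 14 alternatives. Cnp (-0.23), Ermn (-0.21) and Cldn11 (-0.18) were called too. Cnp lost its call without WT replicate 2 of 18 months (adjusted p = 0.0543, edgeR), and Cldn11 without KO replicate 2 (0.302) or WT replicate 1 at that age (0.572), and with DESeq2 (0.185). With the scaling genes at even places in the list, Cldn11 (0.18) and Ermn (0.0651) lost it. Mbp (-0.12), Mobp (-0.07) and Mag (0.05) did not pass. Mbp was called lower without KO replicate 2 of 18 months (-0.15, adjusted p = 0.0269, edgeR) or KO replicate 1 of 6 months (-0.13, 0.0372). It was also called lower with the sum of the scaling genes (-0.15, adjusted p = 0.0106, edgeR), those at odd places (-0.16, 0.0093), no filter (0.0238) and DESeq2 (0.0328). Of all genes 2.54% were called lower and 55.5% higher, with a median of 0.46, against -0.21 over the members.

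Over age in WT, Ermn (1.32-fold, log2 0.40, SE 0.0631, adjusted p = 1.65e-06, edgeR), Mobp (1.27-fold) and Mbp (1.2-fold) rose relative to the median of the other oligodendrocyte genes, and held in all 14 alternatives. Opalin (0.20) and Cldn11 (0.16) were called higher and Mag (-0.16) and Cnp (-0.13) lower, with calls that single libraries ended. They were WT replicate 2 of 18 months for Opalin (adjusted p = 0.085, edgeR), WT replicate 1 of 18 months (0.728) or WT replicate 2 of 6 months (0.232) for Cldn11, whose call DESeq2 did not make either (0.172), and WT replicate 1 of 18 months (0.0582) or at 6 months (0.0856) for Mag. The Cnp call ended without WT replicate 1 of 18 months (0.274), or, of 6 months, without WT replicate 1 (0.135), WT replicate 2 (0.106) or KO replicate 2 (0.0609). Cldn11 also lost its call with the sum of the scaling genes (adjusted p = 0.091, edgeR) or those at odd places (0.0759), and Cnp with those at even places (0.107). Mog (-0.01) and Mal (-0.02) did not pass. Of all genes 1.43% were called higher and 87.6% lower, with a median of -1.55, against 0.16 over the members. With TMM all 9 members lay inside the range of the list (0.61 to 2.07).

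Over age in KO, Opalin (-0.40), Mal (-0.39), Mobp (-0.35), Mog (-0.31) and Cnp (-0.31) fell relative to the median of the list in all 14 alternatives. Cldn11 (-0.26) fell too, but not without KO replicate 2 of 18 months (adjusted p = 0.0989, edgeR) or KO replicate 1 of 6 months (0.0774), nor with DESeq2 (adjusted p = 0.084). Ermn rose (0.19, adjusted p = 0.0185, edgeR), but not without KO replicate 1 of 18 months (0.118) or KO replicate 2 of 6 months (0.225). Nor was it called with the sum of the scaling genes (0.224) or those at odd places (0.0586). Mbp (0.03) and Mag (0.00) did not pass. Of all genes 15% were called lower and 17.8% higher, with a median of 0.06, against -0.31 over the members. With TMM all 9 members lay inside the range of the list (-0.83 to 0.59).

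Taken over genotype and age at once on this scale, Mobp (-0.69, SE 0.0806, adjusted p = 9.59e-09, edgeR), Opalin (-0.60, SE 0.0925, adjusted p = 1.08e-06, edgeR), Cldn11 (-0.42), Mal (-0.37), Mog (-0.30) and Mbp (-0.24) were called lower in all 14 alternatives. Ermn (-0.21) was called as well, but not without WT replicate 1 of 18 months (adjusted p = 0.0742, edgeR) or, of 6 months, without KO replicate 1 (0.153) or WT replicate 1 (0.0981). The Ermn call was also lost with the scaling genes at even places (0.0704). Mag (0.16, adjusted p = 0.0622, edgeR) and Cnp (-0.17, adjusted p = 0.0501, edgeR) did not pass. Mag was called higher without KO replicate 1 (0.0216) or WT replicate 2 of 18 months (0.0402), with no filter (0.0358) and with DESeq2 (0.0431). Cnp was called lower without KO replicate 1 (0.0376), KO replicate 2 (0.0207) or WT replicate 1 (0.00626) of 18 months, or KO replicate 1 of 6 months (0.0445). It was also called lower with the sum of the scaling genes (-0.24, adjusted p = 0.00364, edgeR), those at odd places (0.0317), no filter (0.0175) and DESeq2 (0.0345). Of all genes 0.901% were called lower and 84.5% higher, with a median of 1.58, against -0.30 over the members. With TMM, Mobp (-2.26) and Opalin (-2.17) alone of the members lay outside the range of the list (-2.07 to -1.17). Tspan2, a gene of central myelin in neither list, lay outside it too (-2.19).

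**Figure D3:**
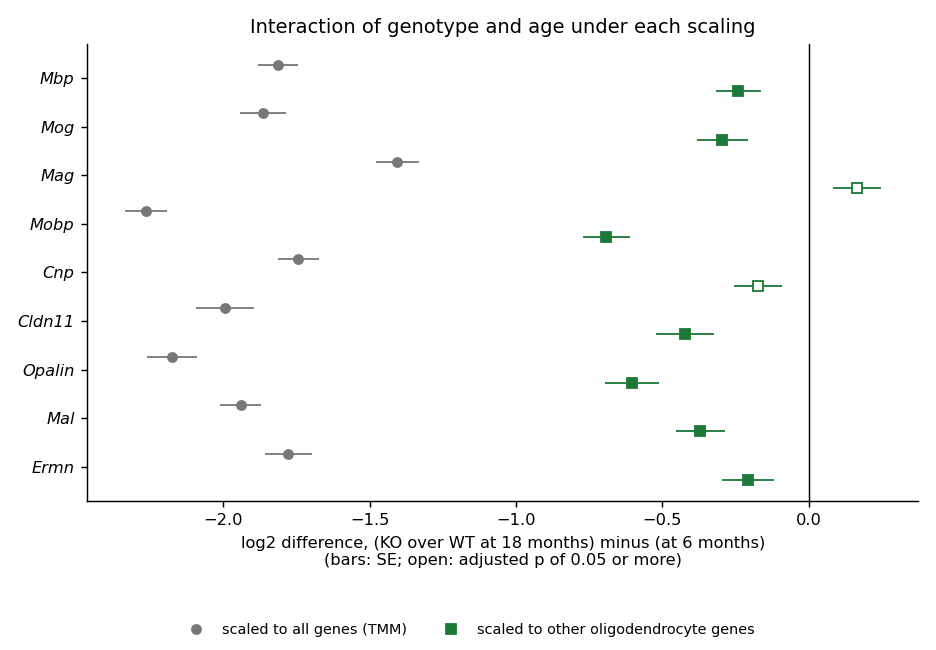
Difference between the genotype effects at the 2 ages for each myelin protein gene (x axis, log2; bars are SE from the fit), with libraries scaled to all genes by TMM (circles) and to 21 other oligodendrocyte genes (squares). Filled symbols passed the threshold. Values run from -2.26 to -1.41 with TMM and from -0.69 to 0.16 relative to the other oligodendrocyte genes.

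The balance among the 9 transcripts was compared on a per-length scale, CPM per kilobase of annotated exon, where the union of exons may be longer than the transcripts made. The Mbp gene has 8469 bases in that union, the most of the 9. Cnp and Mal led in every group, at 747.9 and 718.5 in KO and 1209 and 1293 in WT at 18 months, and at 964 and 984.4 in KO and 465.6 and 461.9 in WT at 6 months. Their libraries overlapped in 3 of the groups and not in KO at 18 months. Mag, Cldn11 and Mbp came next, and they could not be separated by their library ranges in WT at 18 months (711.5, 746.9 and 700.9). Mog, Mobp and Ermn followed in that order in every group, with Mobp and Ermn overlapping in both WT groups (348.2 and 346 at 18 months, 96.5 and 92.3 at 6 months). Opalin was last, at 69.3 in KO and 137 in WT at 18 months, and at 95.6 in KO and 41.9 in WT at 6 months.

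Shares of the summed per-length level do not depend on how libraries are scaled. Mobp made up 6.41% ± 0.00671 in KO and 5.86% ± 0.0312 in WT at 18 months, then 7.02% ± 0.118 in KO and 4.74% ± 0.226 in WT at 6 months (SD, n = 2 each). Ermn made up 5.81% ± 0.129 and 5.82% ± 0.232 in KO and WT at 18 months, and 4.38% ± 0.282 and 4.54% ± 0.18 in KO and WT at 6 months. The share of Ermn thus differed between ages by more than the spread in either genotype, and that of Mobp was lowest in WT at 6 months. Mag made up 14.3% ± 0.66 in KO and 12% ± 0.157 in WT at 18 months, then 12.3% ± 0.363 in KO and 13.7% ± 0.0928 in WT at 6 months. Opalin made up 1.85% ± 0.0684 in KO and 2.31% ± 0.0328 in WT at 18 months, then 2.1% ± 0.0202 and 2.06% ± 0.00369 in KO and WT at 6 months.

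The genes whose profile was most like the members' mean were sought among 10114 genes with a mean of at least 10 CPM that are not members. The measure was the root mean square difference of log2 CPM over the 8 libraries, each gene centred on its own mean. The 6 closest were Litaf (0.0376), an endosomal membrane protein, Map6d1 (0.0401), Adssl1 (0.0418), an enzyme of purine nucleotide synthesis, the ephrin Efnb3 (0.0551), Tmem125 (0.0636), which is also one of the 21 scaling genes, and the lysophosphatidic acid receptor Lpar1 (0.072). The members themselves were at 0.0698 (Mog) to 0.193 (Mobp) from their own mean. Efnb3 averaged 539.1 CPM in KO and 813.5 CPM in WT at 18 months, and 660.1 CPM in KO and 265.2 CPM in WT at 6 months. The 8 libraries form 4 groups of technical replicates, so the likeness rests on 4 groups.

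Other proteins of central myelin changed in the direction of the members. Of 14 genes, 13 fell and 0 rose in KO at 18 months, and 13 rose and 0 fell in KO at 6 months. With age, 14 rose in WT, while in KO 6 fell and 2 rose. Tspan2, a tetraspanin of myelin, rose 3.14-fold in KO at 6 months, and Cd9, another tetraspanin, fell 1.78-fold in KO at 18 months. Of 10 genes of myelin lipid synthesis, 9 fell and 0 rose in KO at 18 months and 9 rose and 0 fell in KO at 6 months. Aspa, Ugt8a, Gal3st1 and Fa2h of this list are also scaling genes. Ugt8a, which makes galactosylceramide, rose 2.84-fold with age in WT, and the fatty acid elongase Elovl7 rose 2.89-fold in KO at 6 months.

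The transcription factors that switch on myelin genes moved unevenly. Of 12 activators, 10 fell and 0 rose in KO at 18 months, and 9 rose and 1 fell in KO at 6 months. Myrf, which acts late in maturation and is also a scaling gene, was at 682.6 ± 54.1 CPM in KO and 893.1 ± 28.4 CPM in WT at 18 months, and at 666.4 ± 14.4 CPM in KO and 282.1 ± 17.4 CPM in WT at 6 months (SD, n = 2 each). Sox10, needed at all stages, was 1.93-fold lower in KO than in WT at 18 months (-0.95 on the log2 scale, SE 0.066, adjusted p = 8.74e-11, edgeR) and also fell with age in KO (-0.62). Olig2, made in precursors too, was the activator that fell in KO at 6 months (-0.18, SE 0.0647, adjusted p = 0.0263, edgeR). With age, 9 activators rose and 2 fell in WT, and 1 rose and 6 fell in KO.

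Genes that hold oligodendrocytes back from maturing went against the members at 6 months and with age in WT. Of 8 inhibitors, all 8 fell in KO at 6 months and all 8 fell with age in WT, while at 18 months 5 rose and 2 fell in KO. In KO with age, 1 rose and 2 fell. The dominant-negative factors Id2 and Id4, also expressed in astrocytes, rose 2.21-fold and 2.5-fold in KO at 18 months. Gpr17, a receptor of cells about to mature that is also in the list of newly formed oligodendrocytes, was at 100.6 ± 2.84 CPM in KO and 184.6 ± 1.94 CPM in WT at 18 months, and at 175 ± 6.15 CPM in KO and 531 ± 4.4 CPM in WT at 6 months (SD, n = 2 each), so it fell in KO at both ages.

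Precursor markers went against the members at 6 months and with age in WT, where all 8 fell. In the difference between the genotype effects they also went against the members, with all 8 called higher (median 0.75, from 0.39 to 1.52). They went mostly the same way as the members in KO at 18 months and with age in KO. In KO at 18 months 7 fell and 1 rose (median log2 fold change -0.69), and in KO with age 5 fell and 1 rose (median -0.43). Pdgfra, the growth factor receptor of precursors, fell 1.6-fold in KO at 18 months and 2.96-fold in KO at 6 months. Of 8 markers of newly formed oligodendrocytes, 5 fell and 1 rose in KO at 18 months and 4 fell and 2 rose in KO at 6 months. With age, 6 fell and 2 rose in WT, and 4 fell and 1 rose in KO. The 2 that rose at 6 months and in WT with age were Enpp6, at 74.3 ± 6.41 CPM in KO and 28.1 ± 2.05 CPM in WT at 6 months, and Bcas1, at 165 ± 9.07 CPM in KO and 115 ± 7.09 CPM in WT at 6 months (SD, n = 2 each). Gpr17 and Tnr of the same list fell there.

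Markers of other cell types moved with the groups too, and their part in the results above was not tested. The 10 astrocyte markers ran opposite to the members, summing to 8844 and 8876 CPM in KO and 4075 and 4114 CPM in WT at 18 months, and to 7180 and 7200 CPM in KO and 11790 and 11860 CPM in WT at 6 months. All 10 rose in KO at 18 months and all 10 fell in KO at 6 months. The 8 precursor markers summed to 1551 to 1574 CPM in KO and 1592 to 1607 CPM in WT at 18 months, and to 1609 to 1613 CPM in KO and 3494 to 3555 CPM in WT at 6 months. The sums at 18 months lie close because Ptprz1, also expressed in astrocytes and the one marker of the list that rose there, was at 923.7 ± 21.8 CPM in KO and 623.4 ± 22 CPM in WT, while the other 7 fell. The 5 pericyte and smooth muscle markers summed to 1004 and 1074 CPM in KO and 510.1 and 533.2 CPM in WT at 18 months, and to 1344 and 1363 CPM in KO and 1132 and 1146 CPM in WT at 6 months. The 7 markers of parvalbumin and GABA neurons summed to 138.4 to 173.2 CPM in 3 of the groups and to 263.9 and 278.3 CPM in WT at 6 months. Most of the sum in those 3 groups was Erbb4, which is not restricted to these neurons, at 131.4 CPM in KO and 152.6 CPM in WT at 18 months, and at 119.3 CPM in KO and 102.7 CPM in WT at 6 months. Gad1, an enzyme of GABA synthesis, was at 6.46 ± 0.588 CPM in KO and 12.6 ± 1.73 CPM in WT at 18 months, and at 14.7 ± 0.434 CPM in KO and 128.6 ± 5.39 CPM in WT at 6 months (SD, n = 2 each). Gad2, the other such enzyme, was at 1.3 and 3.25 CPM in KO and WT at 18 months, and at 7.76 and 24.1 CPM in KO and WT at 6 months. The 6 microglial markers summed to 41.8 and 45 CPM in KO and 111.2 and 113.8 CPM in WT at 18 months, and to 107.3 and 110.1 CPM in KO and 81.5 and 83.8 CPM in WT at 6 months, and all 6 fell in KO at 18 months. In these lists Pvalb was at 0 in KO at 6 months, and no other marker was at 0 in a whole group.

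**Figure D4:**
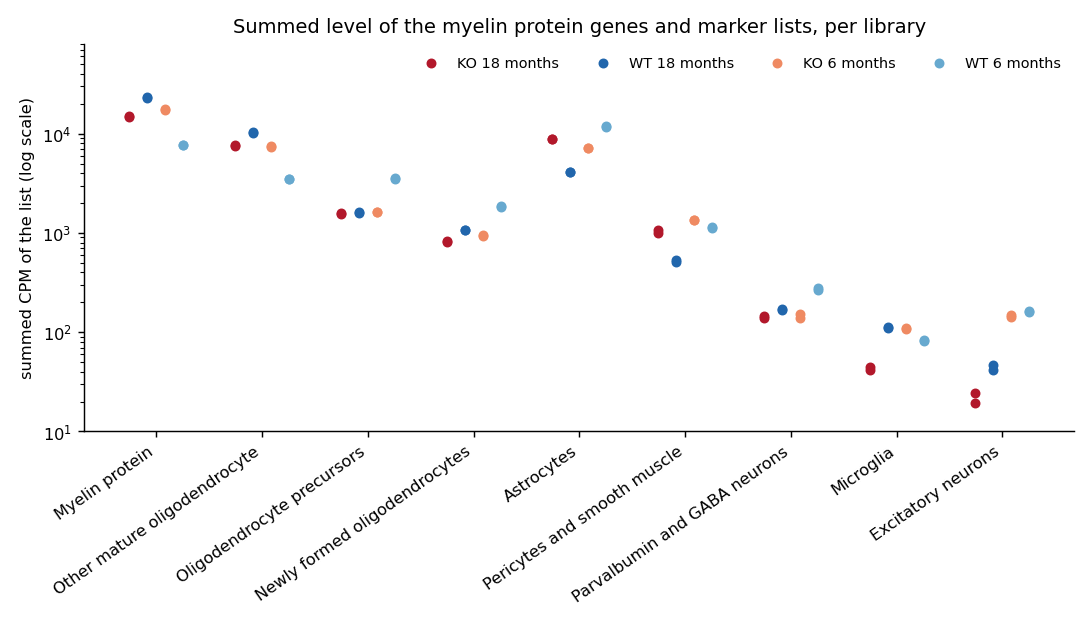
Summed CPM (log axis) of the 9 myelin protein genes, 22 other mature oligodendrocyte genes and 7 marker lists in each library, with KO and WT at 18 months, then KO and WT at 6 months, from left to right within a list. The 2 points of a group often cover each other. The myelin and mature oligodendrocyte sums are highest in WT at 18 months and lowest in WT at 6 months, and the astrocyte sum has these 2 groups the other way round.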

How the data were processed

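The authors deposited raw read counts per Ensembl gene, 1 table per library, which per the submitters' processing notes came from featureCounts 1.5.0-p1 after STAR 2.5.2a alignment to mm10, with CASAVA 1.8.2 also named. Which annotation was counted, and how strand and multiply matching reads were handled, is not given in the sources used. Symbols, positions and exon lengths came from GENCODE M21 of that build, which named 55480 of 55573 IDs, and promoters from RefSeq (GRCm38.p6). Library totals were 6008175 to 13551218 counts.

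All 4 groups were fitted in one model with edgeR 4.0.16 (R 4.3.3, TMM, quasi-likelihood F test, minimum count 10, 18205 genes, at least 99.7% of the counts of a library). P-values were adjusted over all tested genes by Benjamini-Hochberg, with a threshold of 0.05. A further fit set library sizes by the median of ratios over 21 mature oligodendrocyte genes. Intervals use the t distribution of the fit. Alternatives were RLE factors, library totals, DESeq2 1.42.0, no filter, each library left out, the groups of a comparison alone, other scaling sets and the replicate number as a block. Libraries of a group differed by 2.62 to 5.16 chi-square units per gene, so none was treated as a duplicate. The code was tested on simulated data.

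The members and lists were chosen with earlier results of these data known. Every member was named in every comparison, and from other lists up to 2 genes per direction and comparison with the smallest p, of which some are not reported here.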

Additional observations from a re-analysis of the deposited data

Results flagged for a closer look

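The genotype effect differed between the ages for all 9 myelin protein genes by the direct test of that difference (edgeR, all adjusted over 18205 genes). The log2 values, KO over WT at 18 months minus KO over WT at 6 months, were -1.81 for Mbp, -2.26 for Mobp, -1.94 for Mal, -1.74 for Cnp, -1.41 for Mag, -1.86 for Mog, -1.99 for Cldn11, -2.17 for Opalin and -1.78 for Ermn. Of all genes, 20.7% were called lower and 18.4% higher. Relative to 21 other oligodendrocyte genes, the difference between ages was called for 7 of the 9, at -0.24 for Mbp, -0.69 for Mobp, -0.37 for Mal, -0.30 for Mog, -0.42 for Cldn11, -0.60 for Opalin and -0.21 for Ermn. In that fit 0.901% of all genes were called lower and 84.5% higher, shares that follow the scaling. The Ermn call was lost in some alternatives. With TMM, Mobp and Opalin alone of the members lay outside the range of the 21 genes. Each of these log2 values sets the 4 groups against each other, and WT at 6 months, the group that stood apart, enters all of them.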

How the results depend on the processing

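With TMM scaling, every call on a member made in the 5 comparisons held in direction and threshold under each alternative run. Of 639 alternative values, 631 kept direction and side, 4 calls were gained, all for Ermn with age in KO, and 4 uncalled values changed sign. Those were Mbp and Mag with age in KO, at 0.06 and 0.04 with library totals, and with libraries left out in turn at -0.08 to 0.02 for Mbp and -0.12 to 0.01 for Mag. The count of members called higher with age in KO, 0, became 1 with library totals, no filter or the replicate number as a block, and was 0 to 1 over the libraries left out.

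Relative to other oligodendrocyte genes, 545 of 630 values kept direction and side, 35 calls were lost, 22 gained, and 28 uncalled values changed sign, none larger than 0.09. With the sum of the scaling genes Mal was at 0.02 at 6 months, and Mbp at -0.07 and Mag at -0.09 with age in KO. With scaling genes at odd places Ermn was at -0.03 at 6 months, and Mbp at -0.01 and Mag at -0.03 with age in KO. With those at even places Mal was at 0.03 at 6 months and Mog at 0.01 with age in WT. With the replicate block Ermn was at 0 at 6 months. Over libraries left out, values ranged for KO over WT at 6 months from -0.08 to 0.09 (Ermn) and -0.05 to 0.04 (Mal), with age in KO from 0 to 0.05 (Mbp) and -0.04 to 0.04 (Mag), and with age in WT from -0.07 to 0.03 (Mog) and -0.09 to 0.03 (Mal). Members called lower in KO at 6 months numbered 1 with odd genes (0 before). Members called higher with age in KO numbered 0 with the sum or odd genes (1 before) and 0 to 1 over libraries left out. Members called lower with age in WT numbered 1 with even genes (2 before) and 0 to 2 over libraries left out. Members called higher for the difference between ages numbered 1 with DESeq2, no filter or the replicate block (0 before) and 0 to 1 over libraries left out. The cause was not tested.

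At 18 months 4268 genes were higher and 1848 lower in KO with library totals, and 1695 were higher with DESeq2. With age in KO 3839 were higher with library totals and 1551 with DESeq2. Over libraries left out, 1931 to 3407 were lower in KO at 18 months (1931 without WT replicate 2 of 18 months), and with age in KO 1252 to 2791 were higher and 2003 to 3495 lower.

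Same-numbered libraries did not deviate together (correlations of 0 to 0.09 across genes between groups), so the replicate number was not used in the main model. With the replicate block, 2886 genes were higher and 3436 lower in KO at 18 months, and all 9 members were lower as before. Relative to other oligodendrocyte genes, the block added calls for Mbp at 18 months (-0.12, adjusted p = 0.0409, edgeR) and for Mag (0.16, 0.0404) and Cnp (-0.17, 0.0308) in the difference between ages, and ended no member's call.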

Other observations

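Genes of peripheral myelin, made by Schwann cells outside the brain, did not share the members' pattern as a list. Pmp2 was at 0 in every library, and Ncmap had too few reads to test. Of the 4 tested genes, 1 rose and 1 fell in KO at 18 months and 1 rose and 1 fell in KO at 6 months, and with age 1 rose and 3 fell in WT and 1 rose and 0 fell in KO. Pmp22, also expressed outside nerves, was at 181 ± 10.4 CPM in KO and 223 ± 2.67 CPM in WT at 18 months, and at 158 ± 0.388 CPM in KO and 86.4 ± 5.2 CPM in WT at 6 months (SD, n = 2 each).

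Of 6 genes that carry, bind or regulate the use of Mbp mRNA and other myelin RNAs, 3 fell and 0 rose in KO at 18 months, and 3 rose and 1 fell in KO at 6 months. With age 4 rose and 1 fell in WT, and 2 rose and 1 fell in KO. The RNA-binding protein gene Qk rose 2.57-fold with age in WT (log2 fold change 1.36, SE 0.0753, adjusted p = 1.2e-13, edgeR), and the kinesin Kif1b rose in both genotypes (1.19 in WT and 0.45 in KO). The kinase Fyn fell with age in both genotypes (-0.34 in KO and -0.33 in WT).

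Other markers gave values as follows. Of the 6 microglial markers, 2 rose and 0 fell in KO at 6 months. The 5 markers of excitatory neurons summed to 19.3 and 24.2 CPM in KO and 42 and 46.3 CPM in WT at 18 months, and to 143.7 and 150.7 CPM in KO and 158.4 and 164.3 CPM in WT at 6 months. The 5 endothelial markers summed to between 54.9 and 84.5 CPM over the 8 libraries.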
